A study of Drosophila melanogaster with 11 samples.

Results

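Male flies kept for 10 days at 29 °C were compared with males frozen at the start of the exposure, to describe how circular RNAs (circRNAs) and linear transcripts of the head differed after the warm period. The comparison was chosen by the group labels alone and uses 6 of the 11 libraries of the series, 3 labelled pre-treatment and 3 labelled 29 °C. All flies were wild-type CantonS (strain CS), raised at 25 °C in equal periods of light and dark, mated for 3 days (the study's methods give a shorter time), sorted by sex under CO2 and left for 1 day to recover. Pre-treatment males were frozen then, and the 29 °C males after 10 further days at 29 °C in vials of 10. Each library pooled about 30 males, so the spread between libraries is a spread between pools, and p-values measure that spread alone. The labels give the tissue as head, although part of the design text says brain. The 29 °C flies were both older and warmer than the pre-treatment flies, so age and warmth cannot be told apart in this comparison. For that reason the 2 libraries of flies kept for 10 days at 25 °C are given beside part of the main results. The hour of freezing is not given in the sources used here.

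CircRNAs are closed loops made by back-splicing, in which a downstream splice donor is joined to an acceptor that lies upstream of it. Because such a loop has no free ends, it resists the enzymes that degrade linear RNA from the ends, and circRNAs are known to be abundant and long-lived in neurons. The head holds the brain, the compound eyes, antennae and mouthparts, fat body, cuticle and small muscles, and its RNA is therefore a mixture of many cell types.

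The table gave DESeq2-normalized reads for 1837 circRNAs with a genomic span of 50 nt or more and for 13804 linear genes, with 1 size factor per library for both kinds. CircRNAs were counted from reads that cross the head-to-tail junction. The libraries held 32.1 to 52.4 M reads (M, 1000000) before treatment and 54.0 to 76.9 M at 29 °C, 1.61 times as many on average, so that 3 reads amounted to 3.42 to 5.98 normalized reads before treatment and 2.26 to 3.27 at 29 °C. Markers of the head were present in every library. The rhodopsin gene ninaE (903277 to 906835 normalized reads before treatment) and the neuronal gene elav (18682 to 25011) were high, and the summed level of the testis list was 1036 to 2190 before treatment and 732 to 768 at 29 °C. A change was called when limma gave an adjusted p (Benjamini-Hochberg, over all circRNAs or over all genes) under 0.05 and a log2 fold change beyond 0.5 in either direction, on log2(value + 1). Log2 fold changes are from this fit, and folds are ratios of group means. In RNA from whole heads, a lower level can mean fewer cells of a type or less RNA per cell, and these cannot be told apart.

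The summed level of circRNA was 31621, 13271 and 35197 normalized reads in pre-treatment replicates 1, 2 and 3, and 39109, 44203 and 39297 at 29 °C. Every 29 °C library lay above every pre-treatment library, and pre-treatment replicate 2 stood well below the other libraries. The means were 26696 ± 11763 (SD, n = 3) and 40870 ± 2888 (n = 3), a ratio of 1.53, with an exact two-sided permutation p = 0.1, the smallest that 3 against 3 libraries allow. Without pre-treatment replicate 2 the ratio was 1.22. As junction reads per M reads in the table, which does not use the size factors, the values were 529, 222 and 550 before treatment and 688, 752 and 680 at 29 °C, a ratio of 1.63, or 1.31 without pre-treatment replicate 2. The 2 libraries kept at 25 °C held 33147 and 42418 normalized circRNA reads, which overlapped with the 29 °C libraries.

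**Figure D1:**
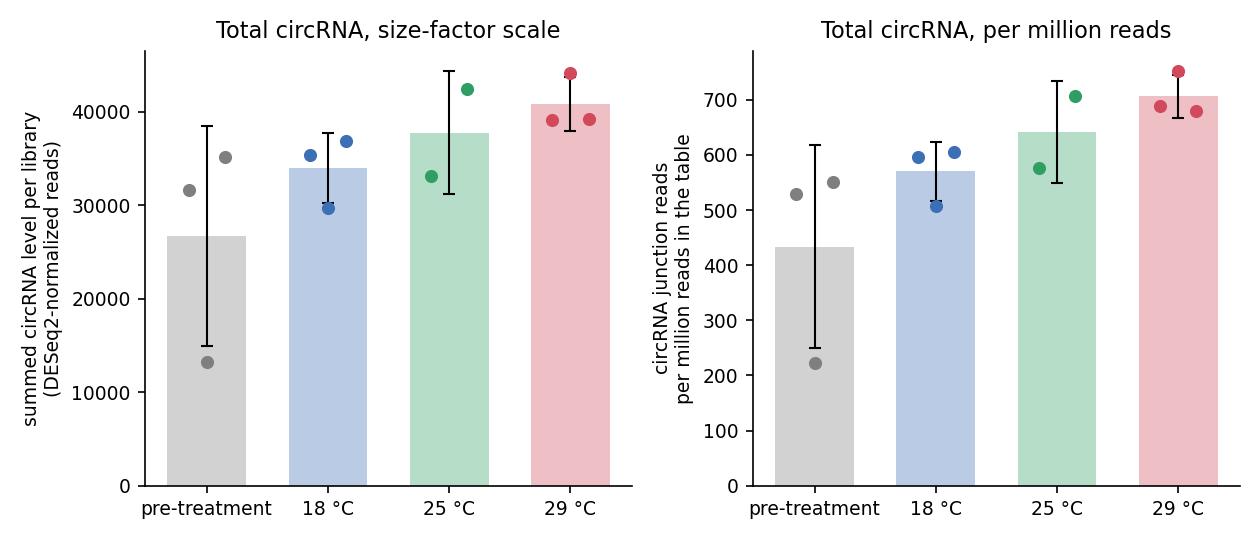
Total circRNA per library as DESeq2-normalized reads (left) and as junction reads per M reads in the table (right), for the 4 groups. Bars are group means, points are libraries and error bars are SD. The 3 libraries at 29 °C lie between 39109 and 44203 on the left, above all 3 pre-treatment libraries, of which replicate 2 is the lowest point at 13271.

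Among the circRNAs kept in the table, more kinds were also detected at 29 °C. The paper kept circRNAs with counts above 3 in all replicates of at least 1 condition. Of those tested here, 170 passed such a limit through the 29 °C libraries alone and 4 through the pre-treatment libraries alone. Higher detection at 29 °C was therefore in part fixed by the choice of features. Of the circRNAs of the table, 1485, 1194 and 1312 were detected in the pre-treatment libraries and 1739, 1723 and 1767 in those at 29 °C. The libraries at 29 °C were deeper and held more circRNA reads. Each library was therefore also thinned to 11641 circRNA reads, the number in pre-treatment replicate 2, which had the fewest. This made circRNA reads equal but not sequencing depth, since that library held 52.4 M reads, the most before treatment. It also does not undo the choice of features. At that equal number of circRNA reads 1435, 1194 and 1281 were detected before treatment and 1559, 1546 and 1576 at 29 °C, 1.2 times as many (exact permutation p = 0.1, the smallest possible). The most abundant circRNA took 3.30% ± 1.39 (SD, n = 3) of circRNA signal before treatment and 5.30% ± 0.65 (n = 3) at 29 °C, whereas the 100 most abundant took 41.0% ± 0.82 and 38.6% ± 0.96.

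Of 1767 circRNAs with enough signal to be tested (all libraries of at least 1 group above 3 normalized reads), 338 were called higher at 29 °C (19.1%) and 2 lower (0.113%). The log2 fold change was positive in 1507 of the 1767, with a median of 0.93, and 648 had an unadjusted p under 0.05. In 658 circRNAs (37.2%) every 29 °C library lay above every pre-treatment library, and in 15 (0.849%) every one lay below. The 338 came from 225 host genes and had a median log2 fold change of 2.35, and for 100 of them all 3 pre-treatment libraries were at 0. Among the 400 circRNAs that averaged at least 20 normalized reads over the 6 libraries, 89 were called higher and 1 lower. Their median log2 fold change was 0.75, or 0.33 without pre-treatment replicate 2.

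The number of calls moved with single libraries and with scaling. Leaving out pre-treatment replicate 2, the library with least circRNA, gave 279 higher and 17 lower, brought the median log2 fold change from 0.93 to 0.58, and kept 249 of the 338 calls. All 338 were still positive without it. Leaving out pre-treatment replicate 1 gave 531 higher, and leaving out 29 °C replicate 1, 2 or 3 gave 163, 155 or 156. When every library was rescaled to the same circRNA total, 132 were higher and 32 lower, and the median log2 fold change was then 0.36. edgeR on reads recovered from the table called 173 higher, and DESeq2 251. A circRNA could enter the test through any group, and this bears on the calls. Of the 765 that passed the limit in the pre-treatment libraries themselves, 104 were higher (13.6%) with a median log2 fold change of 0.64, or 0.28 without pre-treatment replicate 2, against 61 of the 170 (35.9%) that passed through the 29 °C libraries alone.

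**Figure D2:**
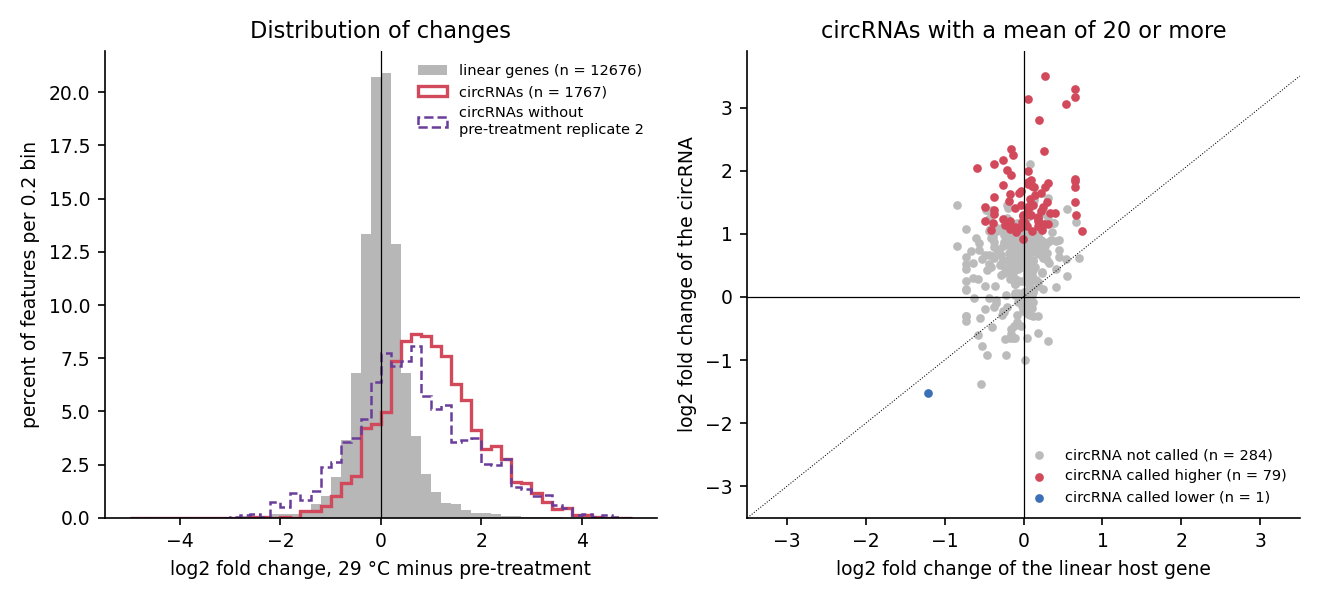
Left, log2 fold changes between 29 °C and pre-treatment for 1767 circRNAs and 12676 linear genes as percent of features per bin (values beyond 5 in either direction are drawn at 5), with circRNAs also shown without pre-treatment replicate 2. Right, the log2 fold change of each circRNA with a mean of 20 or more against that of its linear host gene. The circRNAs are shifted to the right of the linear genes, less so without replicate 2, and 318 of the 364 circRNAs on the right lie above the diagonal.

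The gene muscleblind (mbl) held the largest group of called circRNAs. It encodes a splicing factor that regulates alternative exons in muscle and neurons, and the protein is known to bind the introns that flank one of its own exons and to promote circularization of that exon. Of 16 tested mbl circRNAs 14 were called higher, beside the 19.1% of all circRNAs, and all 16 had a positive log2 fold change, from 1.36 to 3.71. Of the 14, 2 had entered the test through the 29 °C libraries alone. Of the 16, 11 share 1 start at chr2R:17275410 and differ in where they end, so they are not independent measurements. Summed over all 16, the level was 1245, 741 and 834 normalized reads before treatment and 2967, 2648 and 2920 at 29 °C, 3.03-fold higher. Without pre-treatment replicate 2 it was 2.74-fold higher. The mean of the 2 libraries at 25 °C was 2325, between the other 2 groups.

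The most abundant circRNA of the table, the single-exon mbl circRNA at chr2R:17275410-17276063 (654 nt, dm6), was at 1020, 627 and 688 normalized reads before treatment and at 2252, 2015 and 2192 at 29 °C. The groups were far apart, with every 29 °C library well above every pre-treatment library. The fold was 2.77 and the log2 fold change 1.5 (SE 0.38, adjusted p = 0.0175). The call was lost without any 1 of the 29 °C libraries, with the 6 libraries alone, or after rescaling to the same circRNA total. A longer circRNA from the same start, ending at 17316138, changed more steeply. It was at 18.9, 17.1 and 16 normalized reads before treatment and at 171, 147 and 174 at 29 °C, 9.48-fold higher (log2 fold change 3.17, SE 0.28, adjusted p = 5.23e-05), with a mean of 85.9 at 25 °C. One that ends at 17295876 was at 7.86, 7.98 and 0 before treatment and at 43.3, 37.0 and 43.6 at 29 °C (log2 fold change 3.29, adjusted p = 0.00735), a call lost after rescaling or with depth in the fit. The far end of this circRNA, like that of the longer one, lies at no annotated exon end of the gene. The linear reads of mbl also rose, from 50654 ± 3728 to 79810 ± 3536 (SD, n = 3 each, log2 fold change 0.66, adjusted p = 0.000219). Relative to the linear reads, the longer circRNA was still higher (difference of log2 fold changes 2.51, adjusted p = 0.00316), whereas the single-exon circRNA did not pass (0.84, adjusted p = 0.108).

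A second group lies on the minus strand of chromosome 2R inside the annotated, mutually overlapping genes Kdm4B (a histone lysine demethylase), seq and CG17724. The table gives these 8 circRNAs no host. Of the 8, 6 were called higher (19.1% of all circRNAs were) and all 8 had positive log2 fold changes, as had 1507 of all 1767. They share starts or ends with each other. Their summed level was 138, 73.0 and 53.8 normalized reads before treatment and 400, 319 and 400 at 29 °C, 4.22-fold higher, with a mean of 302 at 25 °C. The circRNA with the steepest change, at chr2R:13180990-13183212, was at 11, 3.42 and 0 before treatment and at 62.8, 63.2 and 62.4 at 29 °C (log2 fold change 4.09, SE 0.68, adjusted p = 0.00328). The 3 libraries at 29 °C were nearly equal, and each pre-treatment library lay far below them. Another, at chr2R:13185784-13187908, was at 17.3, 13.7 and 3.99 before treatment and at 78.1, 71.9 and 96.2 at 29 °C (log2 fold change 2.90, adjusted p = 0.00328).

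Large rises were also measured for circRNAs of Sarm, Ank2, CadN, Dscam2 and Eph. Sarm encodes an adaptor protein that drives the self-destruction of injured axons. Its circRNA at chr3L:8106016-8106949, made of 1 exon, was at 4.71, 5.70 and 5.98 normalized reads before treatment and at 51.8, 54.4 and 60.1 at 29 °C. That is 10.1-fold higher (log2 fold change 3.13, SE 0.36, adjusted p = 0.000551), with no library near the other group and with 37.5 on average at 25 °C. Ank2 encodes a neuronal ankyrin, which links membrane proteins to the cytoskeleton along axons and at synapses. Its circRNA at chr3L:7656375-7661506 was at 18.9, 9.12 and 21.9 before treatment and at 80.7, 80.6 and 74.4 at 29 °C, 4.72-fold higher (log2 fold change 2.26, SE 0.36, adjusted p = 0.00328). CadN encodes the N-cadherin of axon guidance. Its circRNA at chr2L:17737964-17739713 was at 14.1, 12.5 and 5.98 before treatment and at 62.8, 47.9 and 59.4 at 29 °C (log2 fold change 2.35, adjusted p = 0.00328). The CadN call was lost when libraries were rescaled to the same circRNA total. Dscam2, a cell surface receptor of neurite tiling, had a circRNA at chr3L:7179723-7183955 of 6 exons, at 9.43, 9.12 and 7.98 against 39.9, 30.5 and 26.3 (log2 fold change 1.74, adjusted p = 0.00871), a call that was lost without 29 °C replicate 1 or after that rescaling. The Ephrin receptor gene Eph had one at chr4:619637-621872, at 6.29, 2.28 and 0 against 18.7, 27.2 and 15 (log2 fold change 2.85, adjusted p = 0.0252). That call was lost without pre-treatment replicate 3 or any 1 of the 29 °C libraries. Rescaling, the 6 libraries alone, depth in the fit and edgeR each ended it too.

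Calx, the sodium/calcium exchanger that clears calcium from photoreceptors and neurons, was a case in which circular and linear RNA changed in opposite directions. Its circRNA at chr3R:20992241-20994423 was at 20.4, 11.4 and 14.0 normalized reads before treatment and at 79.0, 53.4 and 63.9 at 29 °C, 4.29-fold higher (log2 fold change 2.05, adjusted p = 0.00578). The call of the circRNA was lost when libraries were rescaled to the same circRNA total. The linear reads fell from 31089 ± 6033 to 20364 ± 1595 (SD, n = 3 each, log2 fold change -0.60, adjusted p = 0.0111), so that the ratio rose by 2.65 on the log2 scale (adjusted p = 0.00723). The linear call was lost without pre-treatment replicate 3 or 29 °C replicate 3. The linear reads of Sarm, Ank2, CadN and Dscam2 were not called.

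The remaining rises of the largest size came from mam, CG41099, CG32809 and DCX-EMAP. The circRNA of mam, the coactivator of the Notch pathway, at chr2R:14010163-14011181 was at 7.86, 3.42 and 9.97 normalized reads before treatment and at 43.3, 39.2 and 28.6 at 29 °C (log2 fold change 2.31, adjusted p = 0.00509). That of CG41099, at chr3R:3849499-3850235, was at 0, 5.70 and 3.99 against 23.8, 51.2 and 36.1 (log2 fold change 3.5, SE 0.65, adjusted p = 0.00442). The circRNA of CG32809, at chrX:1675319-1677317, was at 3.14, 5.70 and 5.98 against 39.9, 42.5 and 36.1 (log2 fold change 2.80, adjusted p = 0.0193). None of these 3 overlapped between groups, but the call for CG32809 was lost without any 1 of the 29 °C libraries. It was lost as well after rescaling to the same circRNA total or with depth in the fit. Of the 5 tested circRNAs of CG32809, 3 were called higher, beside 19.1% of all circRNAs. Only those 3 had a positive log2 fold change, and the lowest value was -1.25. The circRNA of DCX-EMAP, a microtubule protein of mechanosensory organs, at chr3L:14903876-14904980, was at 9.43, 0 and 9.97 against 45, 38.1 and 36.1 (log2 fold change 3.06, adjusted p = 0.0131), a call lost without 29 °C replicate 1 or 2. Without pre-treatment replicate 2, the library at 0, the log2 fold change was 1.92.

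The circRNAs of a set of hosts were also measured by RT-qPCR in the study. For its temperature experiment the paper chose circRNAs that had risen with temperature in its sequencing. A high share of calls among these hosts was therefore favoured by that choice and is no separate support. The most abundant tested circRNA of each such host was followed here, for 12 hosts. In 7 of the 12 it was called higher, beside 19.1% of all circRNAs: these were mbl, Ank2, CG32809, CG41099, Eph and Dscam2, given above, and Haspin. The Haspin kinase phosphorylates a histone in mitosis. Its circRNA at chr2R:4029741-4030297 was at 88.0, 47.9 and 67.8 normalized reads before treatment and at 130, 159 and 124 at 29 °C (log2 fold change 1.04, adjusted p = 0.0320), and this call was lost without 18 °C replicate 1 or 2 or any 1 of the 29 °C libraries. Rescaling to the same circRNA total also ended the Haspin call. The circRNA of sfl, an enzyme that sulfates heparan, did not pass at chr3L:6523030-6524096, with 23.6, 2.28 and 14.0 against 31.4, 28.3 and 25.6 (log2 fold change 1.46, adjusted p = 0.0984). It was called without pre-treatment replicate 1, and without pre-treatment replicate 2 the log2 fold change was 0.61 (adjusted p = 0.223). The circRNA of CaMKI, a calcium-dependent kinase, at chr4:449924-450509 was at 226, 70.7 and 433 before treatment and at 166, 233 and 140 at 29 °C, with overlapping groups (log2 fold change -0.12, adjusted p = 0.891).

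Of the 46 circRNAs that averaged at least 100 normalized reads, 8 were called higher (17.4%). The circRNA of btsz, a synaptotagmin-like protein, at chr3R:14859309-14860067 was at 935, 279 and 1075 before treatment and at 970, 1056 and 810 at 29 °C. Only pre-treatment replicate 2 stood apart (log2 fold change 0.52, adjusted p = 0.449). All 5 tested circRNAs of btsz had positive log2 fold changes, from 0.50 to 3.97, and 1 of the 5 was called higher, beside 19.1% of all circRNAs. In contrast, the circRNA of Wbp2 at chr3L:12851309-12852277 was at 226, 99.2 and 211 against 400, 428 and 416 (log2 fold change 1.30, adjusted p = 0.0254), without overlap, and this call was lost without any 1 of the 29 °C libraries. At the other extreme, CG17108 had 46 tested circRNAs, the most of any host, and 26 of the 46 had a positive log2 fold change. Their summed level ranged from 26.2 in pre-treatment replicate 2 to 2521 in pre-treatment replicate 3, and was 341 to 825 at 29 °C.

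**Figure D3:**
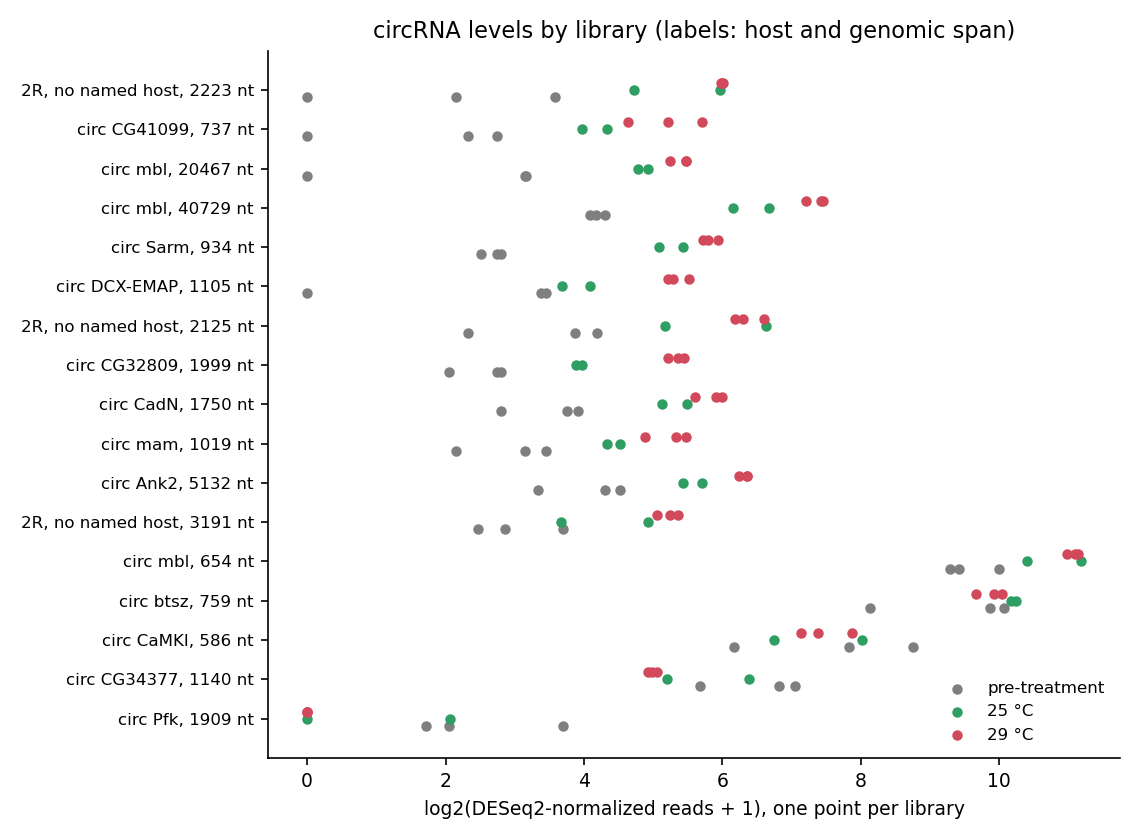
Levels of the circRNAs with the largest rises, of the called falls and of the abundant mbl, btsz and CaMKI circRNAs, 1 point per library on a log2(normalized reads + 1) axis, for pre-treatment, 25 °C and 29 °C. Labels give the host and the genomic span. The 29 °C points of the mbl, Sarm and Ank2 circRNAs lie to the right of all pre-treatment points, and those of btsz and CaMKI lie among them.

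Other hosts with several tested circRNAs were described by their sums. For mim, which links the bending of membranes to actin, 6 of 11 circRNAs were called higher, beside 19.1% of all circRNAs, and the sum was 50.3, 35.3 and 27.9 normalized reads before treatment and 110, 120 and 144 at 29 °C, 3.28-fold higher. For dlg1, the scaffold of synapses and septate junctions, 4 of 11 were called and the sum was 374, 156 and 283 against 526, 552 and 550. For pum, a repressor of translation, 4 of 6 were called and the sum rose 2.36-fold. Of the called circRNAs, 2 of mim, 1 of dlg1 and 1 of pum had entered the test through the 29 °C libraries alone, where they were high. In these 3 hosts all tested circRNAs had positive log2 fold changes, and the linear genes were not called. Of 102 hosts with 4 or more tested circRNAs, 59 had positive values in every one, where 1507 of all 1767 circRNAs were positive.

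Called falls were few. The circRNA of CG34377 at chr3R:22314660-22315799 was at 112, 50.2 and 132 normalized reads before treatment and at 30.6, 29.4 and 32.3 at 29 °C (log2 fold change -1.53, SE 0.43, adjusted p = 0.0257). No libraries overlapped between the groups, but the call was lost without pre-treatment replicate 1 or 3 or any 1 of the 29 °C libraries. The linear reads of CG34377 fell as well, from 769 ± 296 to 316 ± 26.2 (log2 fold change -1.21, adjusted p = 0.00725), and the ratio of circular to linear did not pass (-0.31, adjusted p = 0.477). The other called fall was a low circRNA of Pfk, the phosphofructokinase of glycolysis, at chr2R:10114917-10116825, with 3.14, 2.28 and 12.0 normalized reads before treatment, 10 reads in all, and 0 in the 3 libraries at 29 °C. It was lost without any 1 of the 29 °C libraries, and the linear reads of Pfk also fell (log2 fold change -0.79, adjusted p = 0.00193).

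To ask whether the circRNAs changed with their host genes, each circRNA was set against the linear reads of its host. Of 1641 circRNAs with a tested host, the ratio was called higher in 304 (18.5%) and lower in 1 (0.0609%), a low circRNA of cnn at chr2R:13444428-13445138 (difference of log2 fold changes -1.90, adjusted p = 0.0481). This feature was named after its values were seen. Of the called higher circRNAs 314 had a tested host, and that host was called higher for 22, lower for 4 and not called for 288. The median log2 fold change of those hosts was 0.026. The ratio count also moved with single libraries, to 501 without pre-treatment replicate 1 and to 101, 79 or 106 without 29 °C replicate 1, 2 or 3.

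The share called higher differed between kinds of circRNA. With a genomic span of 50 to 700 nt 10.3% of 359 were higher, with 700 to 2000 nt 18.1% of 703, and with 2000 nt or more 24.7% of 705. Among circRNAs with a mean of 20 or more the shares were 11.1%, 20.9% and 32.5%, and the median log2 fold changes without pre-treatment replicate 2 were -0.03, 0.38 and 0.52. By chromosome the share was 25.7% of 350 on 2R, which holds mbl, and 13.2% of 295 on 2L. Of 47 circRNAs whose linear host was called higher 22 were higher themselves (46.8%), but mbl alone gave 16 of the 47 and 14 of the 22. Of 74 whose host was called lower 4 were higher and 2 lower. These shares are descriptions, since circRNAs of 1 host share their source.

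Linear transcripts changed in both directions. Of 12676 genes tested, 751 were called higher (5.92%) and 874 lower (6.89%), and 4480 had an unadjusted p under 0.05. Without 29 °C replicate 3 the count of higher genes was 493. The groups did not overlap in 2451 genes that were higher (19.3%) and 2770 that were lower (21.9%). The median log2 fold change of all genes was 0.004, and 326 of the higher and 282 of the lower genes changed by more than 2-fold. The genes were then read in lists by function and cell type. Medians and counts of the lists described below are to be read beside the shares of all genes, 5.92% higher and 6.89% lower.

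The steepest falls were in genes of the cuticle, the layered chitin and protein shell that hardens and is still thickened in the first days of adult life. The cuticle gene Acp1 was at 3133, 5591 and 2834 normalized reads before treatment and at 21.2, 19.6 and 23.3 at 29 °C, 180-fold lower (log2 fold change -7.36, adjusted p = 2.98e-07), and at 52.3 on average at 25 °C. CG7214, its near neighbor on 2L, was at 19644, 19755 and 32844 against 11, 21.8 and 24.8 (log2 fold change -10.25, adjusted p = 2.98e-07). The 2 genes were high in all starting flies and at 11 to 24.8 normalized reads in all 29 °C flies. Of 62 cuticle protein genes 18 fell and 5 rose, with a median log2 fold change of -0.44. Among them Ccp84Ag fell from 614 ± 56.0 to 14.5 ± 1.6 (SD, n = 3 each, log2 fold change -5.31, adjusted p = 3.72e-08), and Cpr49Ae fell 6.04-fold. Of 24 genes of sclerotization and melanin, the enzymes that crosslink and darken cuticle, 13 fell and 1 rose (median -0.64). The tyrosine hydroxylase gene ple, which also makes dopamine in neurons, was at 12666, 12721 and 13683 before treatment and at 4760, 4807 and 4497 at 29 °C (log2 fold change -1.47, adjusted p = 3.20e-06). The chitin-binding obst-B fell by 3.17 on the log2 scale and the chitin deacetylase verm by 1.34.

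Most muscle genes were lower. Of 28 muscle genes 18 fell, the other 10 were not called, and the median log2 fold change was -0.74. The log2 fold change was positive in 4 of the 28, among them the muscle actin Act57B, at 50709, 55643 and 47356 normalized reads before treatment and at 62895, 56966 and 61091 at 29 °C (log2 fold change 0.24, adjusted p = 0.0557). The flight muscle actin Act88F was at 1353, 882 and 784 normalized reads before treatment and at 81.5, 103 and 91.7 at 29 °C, 10.9-fold lower (log2 fold change -3.40, adjusted p = 2.48e-06). SERCA, the pump that returns calcium to the sarcoplasmic reticulum, was at 126712, 124131 and 143988 against 42413, 48190 and 45533 (log2 fold change -1.53, adjusted p = 2.26e-06). Groups stood clear of each other for both. Troponin (up) fell 2.12-fold and the myosin heavy chain gene Mhc 1.76-fold. The summed level of the whole muscle list was 888880 to 1116000 normalized reads before treatment and 645150 to 663300 at 29 °C. At 25 °C it was 592980 to 698040, and between 29 and 25 °C 1 of the 28 genes was called, lower at 29 °C. How far the amount of muscle in the heads moved with these genes was not tested.

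Many genes of mitochondrial respiration and sugar use were lower. Of 65 nuclear-encoded genes of oxidative phosphorylation, which build the respiratory complexes and the ATP synthase, 49 fell, the other 16 were not called, and the median was -0.65. The ATP synthase gene ATPsynC was at 111521, 106122 and 122392 normalized reads before treatment and at 53096, 58481 and 57491 at 29 °C, 2.01-fold lower (log2 fold change -1.01, adjusted p = 3.03e-05). The cytochrome c oxidase gene COX5A was at 23292, 23293 and 23118 against 13160, 12531 and 12688 (log2 fold change -0.86, adjusted p = 3.79e-05). The replicates of both genes lay close together within each group. The complex I gene ND-49 and the complex II gene SdhB fell by 0.64 and 0.65 on the log2 scale. Over the 65 genes the summed level was 1014200 to 1186200 normalized reads before treatment, 621090 to 750870 at 25 °C and 590170 to 653400 at 29 °C. Between 29 and 25 °C 0 of the 65 were called. In glycolysis and glycogen metabolism 11 of 21 genes fell (median -0.53), among them Gapdh1 (1.75-fold), Pglym78 (1.73-fold) and the glycogen synthase Glys (1.64-fold). Mitochondrial ribosomal proteins moved less, with 6 lower and 1 higher of 72 and a median of -0.17, beside 6.89% lower and 5.92% higher of all genes. Cytosolic ribosomal proteins moved the other way, with 9 of 86 higher and a median of 0.18, RpL32 rising 1.75-fold and RpL35 1.63-fold. Without pre-treatment replicate 2 that median was 0.09. The summed level of the list overlapped between groups, at 2822300 to 3706100 normalized reads before treatment and 3387700 to 3897100 at 29 °C.

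Secreted stress peptides of the Turandot family, which the fat body releases under heat, infection and other stress, were in part lower at 29 °C. TotA was at 44026, 54517 and 32371 normalized reads before treatment and at 1585, 2751 and 5074 at 29 °C, 13.9-fold lower (log2 fold change -3.93, adjusted p = 8.63e-05), and TotC at 18270, 18844 and 19280 against 319, 700 and 1360 (log2 fold change -4.80, adjusted p = 7.47e-05). Every starting library lay far above every 29 °C library, although the 29 °C libraries differed widely among themselves. The whole list of Turandot and cold-induced genes had 4 falls among 8 tested and a median of -2.24. Its summed level was 55538 to 78826 normalized reads before treatment, 8667.8 to 10904 at 25 °C and 2665.5 to 8061.1 at 29 °C. Between 29 and 25 °C 0 of the 8 were called. The immune-induced cytokine gene Diedel fell 11-fold.

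Some genes of innate immunity rose. Of 35 antimicrobial peptide and bomanin genes, the effectors of the Imd and Toll pathways, 9 rose and 1 fell, with a median of 0.76. Listericin was at 10545, 11802 and 19432 normalized reads before treatment and at 44464, 43799 and 43808 at 29 °C, 3.16-fold higher (log2 fold change 1.71, adjusted p = 0.00174). The attacin gene AttB rose 5.58-fold and the bomanin gene BomS3 2.32-fold. The gene pirk, whose product restrains the peptidoglycan receptors of the Imd pathway, was at 591, 604 and 614 against 1720, 1727 and 1733, 2.86-fold higher (log2 fold change 1.52, adjusted p = 2.94e-06), and PGRP-LB, an amidase that breaks down peptidoglycan, rose 2.17-fold. The libraries of pirk were nearly equal within each group. They belong to the list of 32 recognition and signaling genes, of which 5 rose and 2 fell, with a median of 0.08.

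Metallothioneins, small proteins that bind copper, zinc and cadmium, were higher at 29 °C. MtnA was at 15400, 15118 and 20000 normalized reads before treatment and at 56770, 67462 and 82136 at 29 °C, 4.08-fold higher (log2 fold change 2.03, adjusted p = 0.000484), with 34898 at 25 °C. MtnD rose 5.26-fold. The list with oxidative defence genes had 4 rises among 14 and a median of 0.10. The fourth member beside the metallothioneins was cnc, the Nrf2 factor of flies (log2 fold change 0.54, adjusted p = 0.000484), a call lost without pre-treatment replicate 3. Among the heat shock genes changes were few. Of 6 small heat shock protein genes (median 0.05), l(2)efl was at 3713, 3831 and 2963 against 9613, 7536 and 8556 (log2 fold change 1.29, adjusted p = 0.00024) and Hsp67Bc fell 2.02-fold. Of 21 genes of the larger chaperone families 3 rose and 1 fell (median 0.14). The inducible Hsp70Bb was at 51.9, 37.6 and 35.9 before treatment and at 130, 76.2 and 91.0 at 29 °C (log2 fold change 1.21, adjusted p = 0.0103). Reads can be split among the near-identical Hsp70 copies, and the call was lost without 29 °C replicate 1. Hsp68 rose 1.75-fold, and the co-chaperone DnaJ-1 1.46-fold, a call lost without pre-treatment replicate 3. Hsp83, the fly Hsp90, had a log2 fold change of -0.19 (adjusted p = 0.32), with a change of sign when depth was added to the fit.

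Several clock genes differed. In the fly clock CLK and CYC activate per, tim, vri and cwo, and PER and TIM repress that activation, so that the RNAs cycle over the day. Of 19 clock genes 7 rose and 3 fell (median 0.07). The gene tim was at 9953, 10509 and 9710 normalized reads before treatment and at 41669, 40678 and 41502 at 29 °C, 4.10-fold higher (log2 fold change 2.04, SE 0.06, adjusted p = 2.17e-08). It was at 16264 on average at 25 °C and at 46090 at 18 °C. The other targets moved likewise, per from 3433, 3523 and 3017 to 7689, 6616 and 7336 (log2 fold change 1.12, adjusted p = 4.07e-05) and vri by 2.68-fold, with cwo at 1.62-fold. Clk itself fell 1.5-fold (adjusted p = 0.00644), cyc was not called (log2 fold change -0.26, adjusted p = 0.0306), and Pdf, the neuropeptide of the clock neurons, rose 1.72-fold. The light receptor gene cry fell by 0.70 on the log2 scale (adjusted p = 0.0243), a call lost without pre-treatment replicate 1 or 3 or 29 °C replicate 1 or 3. Clock RNAs are known to vary with the hour of the day, and the hours at which the groups were frozen could not be compared. The genes tim, per and vri overlap other annotated genes, and the strand setting of the counting is not stated.

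Genes of vision changed in part. The light-activated channel gene trp was at 123173, 128486 and 125716 normalized reads before treatment and at 206382, 196886 and 198617 at 29 °C, 1.59-fold higher (log2 fold change 0.67, adjusted p = 8.63e-05), and its partner trpl rose 1.57-fold. Of 24 phototransduction genes these 2 rose and 2 fell (median 0.02), beside 5.92% and 6.89% of all genes. The gene norpA, which encodes the phospholipase C between rhodopsin and the channels, was not called (log2 fold change 0.11, adjusted p = 0.322). Of 14 rhodopsin and chromophore genes (median 0.16) 5 rose, among them ninaE (1.59-fold), Rh4 (1.92-fold) and Rh6 (1.69-fold). The 2 falls were dehydrogenases of the chromophore cycle. Pdh was at 71570, 71874 and 81115 before treatment and at 22085, 21961 and 24227 at 29 °C (log2 fold change -1.72, adjusted p = 6.10e-07), with 43049 at 25 °C, and rdhB fell 1.48-fold. Pdh overlaps an antisense RNA gene.

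Some glial and transmitter genes were lower, whereas few general neuronal genes were called. Of 20 glial genes 8 fell and the other 12 were not called (median -0.34). Their summed level was 291210 to 311620 normalized reads before treatment, 218340 to 236260 at 25 °C and 188800 to 205290 at 29 °C. Between 29 and 25 °C 0 of the 20 were called. The GABA transporter gene Gat was at 7677, 8749 and 8276 normalized reads before treatment and at 3705, 3773 and 3405 at 29 °C, 2.27-fold lower (log2 fold change -1.18, adjusted p = 6.79e-06), without overlap. The glutamine synthetase Gs2 fell 2.08-fold, the sodium pump subunit nrv2 1.97-fold and the glutamate transporter Eaat1 1.47-fold. The glial transcription factor gene repo was at 5710 ± 72.4 against 5139 ± 162 (log2 fold change -0.15, adjusted p = 0.0667). Of 24 monoamine genes 9 fell (median -0.27), with the dopamine transporter gene DAT 1.57-fold and the serotonin transporter gene SerT 1.62-fold lower beside ple. Of 40 neuron and synapse genes 3 fell (median -0.15), near the 6.89% of all genes that fell. Those were Gad1, the enzyme of GABA synthesis (1.85-fold), ChAT, the enzyme of acetylcholine synthesis (1.90-fold), and comt, the NSF factor of vesicle fusion (1.72-fold). The ChAT call was lost without 29 °C replicate 1 or 3. The pan-neuronal elav was not called, with a log2 fold change of 0.20 that turned to -0.02 with depth in the fit. Among neuropeptide genes 3 of 29 rose and 3 fell (median -0.05), and Nplp3 was at 31186, 50500 and 17087 against 4462, 3798 and 5014 (log2 fold change -2.77, adjusted p = 0.000419).

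Genes of lipid and nutrient use rose in small numbers. Of 22 lipid genes 3 rose (median 0.23): the fat-mobilizing lipase brummer (bmm) at 4761, 4496 and 3516 normalized reads before treatment and 9725, 9246 and 9884 at 29 °C (log2 fold change 1.19, adjusted p = 4.92e-05), the desaturase Desat1 (1.6-fold) and the lipase Lip4 (1.56-fold). At 25 °C bmm was at 9774, level with 29 °C. Of 14 insulin and nutrient genes 4 rose and 1 fell (median 0.34). Both ImpL2, a secreted insulin-binding protein (2.00-fold), and Limostatin (Lst), a hormone that limits insulin release (1.98-fold), were among the rises. The amylase copies Amy-p and Amy-d, which share near-identical sequence, rose 5.21-fold and 2.23-fold. They were the only called members of the gut list (14 tested, median -0.12), whose summed level was 9624 to 10429 before treatment and 12832 to 16194 at 29 °C. Of 22 genes of the hormone list 2 rose and 4 fell (median 0.03). There jhamt, which makes juvenile hormone, rose 4.07-fold, and Jhe, which degrades it, fell from 710, 601 and 1029 to 135, 174 and 164 (log2 fold change -2.27, adjusted p = 8.98e-05).

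The largest rises of all were in genes of scattered function. Alp9, an alkaline phosphatase, was at 0, 3.42 and 3.99 normalized reads before treatment and at 526, 333 and 283 at 29 °C (log2 fold change 7.04, adjusted p = 2.08e-05). The antennal gene a10 was at 81.7, 65 and 104 against 2227, 2773 and 2157, 28.6-fold higher (log2 fold change 4.84, adjusted p = 2.98e-07). The transporter Mdr50 was at 421, 219 and 367 against 3329, 3971 and 3968, 11.2-fold higher, and at 3055 at 25 °C. None of the 3 overlapped between groups. Odorant-binding proteins went both ways, with 7 of 34 higher and 8 lower and a median of -0.02. Obp56a rose 9.31-fold and Obp28a fell 6.05-fold. Of 79 cytochrome P450 genes 15 rose and 5 fell (median 0.08), with Cyp6w1 at 3.28-fold and Cyp6a8 at 2.77-fold. Of 59 glutathione and glucuronosyl transferases 6 rose and 13 fell (median -0.06). Ugt35B1 was at 7627, 7633 and 7401 before treatment and at 2136, 2237 and 2230 at 29 °C (log2 fold change -1.78, adjusted p = 2.98e-07). Of 85 chemoreceptor genes 7 rose and 2 fell (median 0.05), beside 5.92% and 6.89% of all genes. Among them were Ir41a, 2.83-fold higher, and the odorant coreceptor Orco, 2.10-fold lower.

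Among non-coding genes rises prevailed. Of 1164 ncRNA genes 104 were higher (8.94%) and 21 lower, where 5.55% of 11187 protein-coding genes were higher and 7.6% lower. The long non-coding gene lncRNA:CR42646 was at 37.7, 52.4 and 29.9 normalized reads before treatment and at 475, 502 and 437 at 29 °C (log2 fold change 3.56, adjusted p = 9.96e-06). Of 40 splicing and circRNA biogenesis factors 2 rose (median 0.07), beside 5.92% of all genes. These were mbl and the ELAV family gene Rbp9 (1.79-fold, adjusted p = 0.0142). The Rbp9 call was lost without 29 °C replicate 1 or 3.

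**Figure D4:**
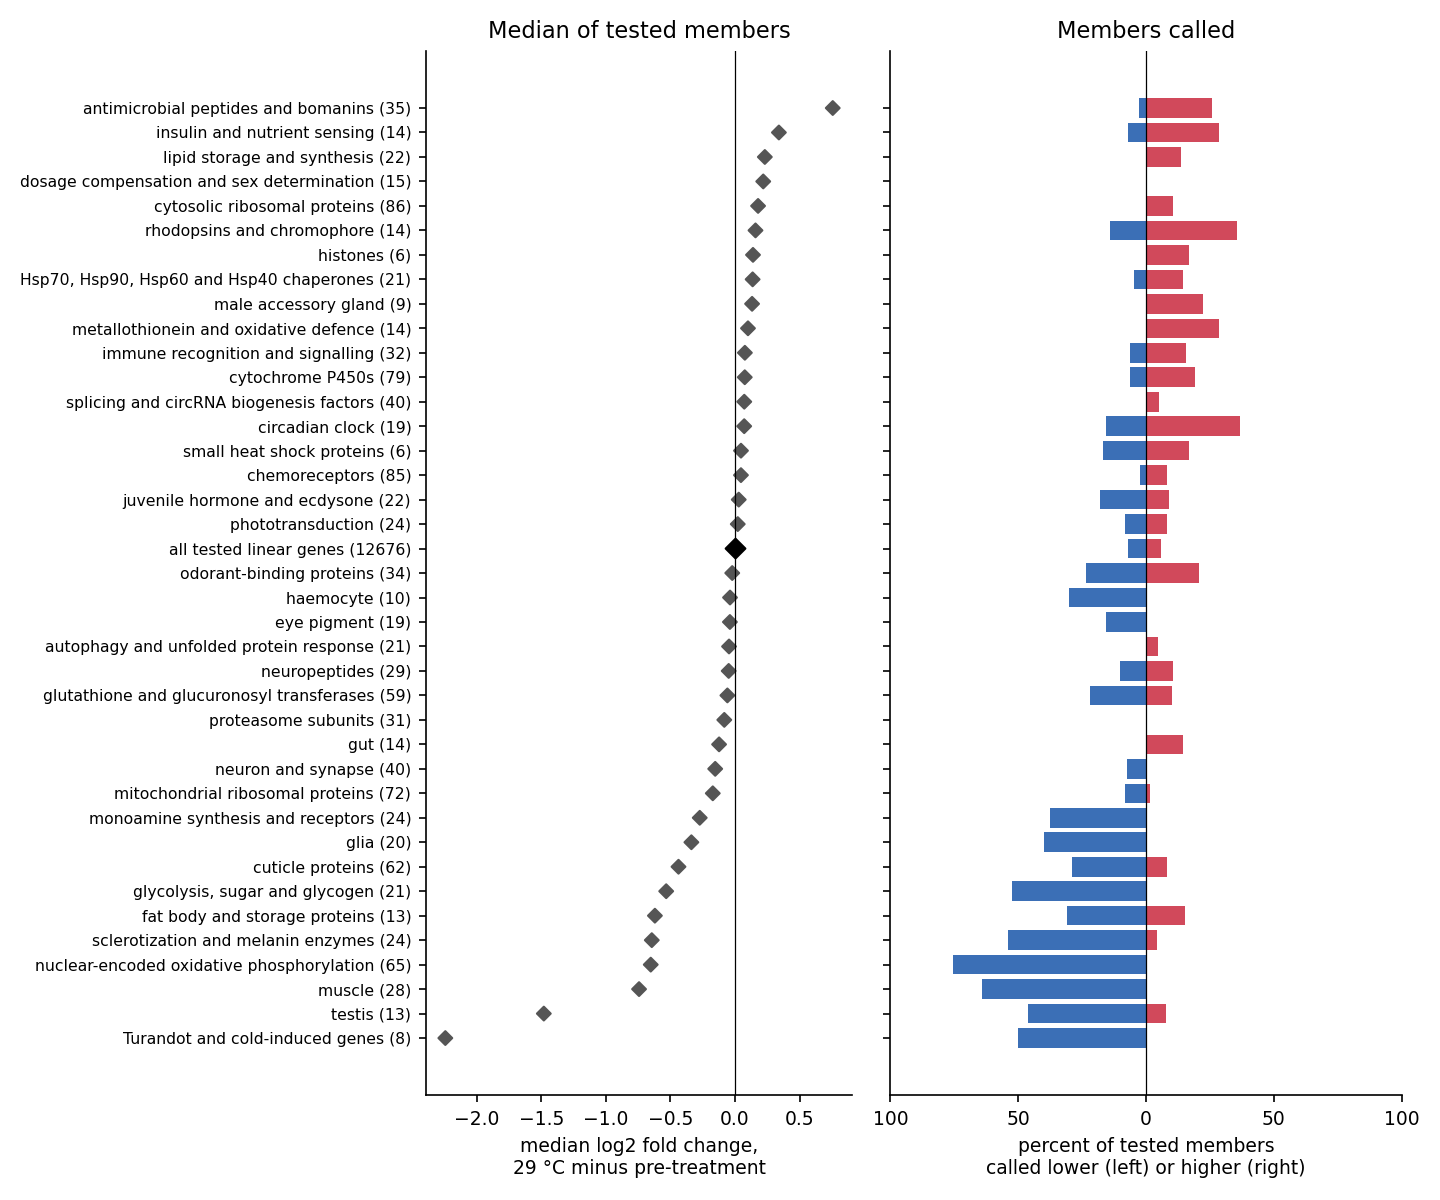
Lists of linear genes, with the number of tested members in parentheses. Left, median log2 fold change of 29 °C minus pre-treatment, with all 12676 tested genes as the larger black diamond; right, percent of members called lower (blue, to the left) or higher (red, to the right). Turandot genes have the lowest median at -2.24, oxidative phosphorylation has the highest share of falls with 49 of 65 genes, and antimicrobial peptides and bomanins have the highest median at 0.76.

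Some markers of other tissues moved as well. Of 10 haemocyte genes 3 fell and 0 rose, and the median of the list was -0.04. Among the 3 were the collagen genes Col4a1, at 53635, 37812 and 92404 normalized reads before treatment and 17523, 21344 and 16232 at 29 °C (log2 fold change -1.65, adjusted p = 0.0106), and vkg (2.77-fold). The summed haemocyte list was 123830 to 216750 before treatment and 92231 to 97900 at 29 °C. Of 13 testis genes 6 fell and 1 rose (median -1.48), most of them S-Lap genes of sperm, whose similar copies can share reads. The part of these tissues in the other results was not tested.

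To set warmth beside age, the features named above were also compared between 29 °C and 25 °C after the same 10 days. This equals the difference between the changes from the starting flies at the 2 temperatures. Of all 12676 genes 31 were higher (0.245%) and 50 lower (0.394%) at 29 °C, counts that moved to 15 and 26 without 25 °C replicate 1, to 89 and 25 without 25 °C replicate 2, to 20 and 28 without 18 °C replicate 1, and to 16 or 17 and 21 to 23 without 1 of the 29 °C libraries. Of the 201 genes that the naming rule gave 20 were called. The 3 clock targets tim (1.34 on the log2 scale, adjusted p = 4.57e-06), per (0.94) and vri (0.77) and the channel genes trp (0.92, adjusted p = 0.000252) and trpl (0.82) were higher than at 25 °C, and trp and trpl at 25 °C lay below the starting level, at 105901 and 86927 on average. The antennal gene a10 was at 501 at 25 °C (2.25 lower than at 29 °C on the log2 scale, adjusted p = 0.000893). Hsp70Bb was at 19.9 at 25 °C (29 °C higher by 2.24, adjusted p = 0.00839, lost without 25 °C replicate 1). Lower than at 25 °C were Ugt35B1 (-1.45), Jhe (-2.06), Pdh (-0.92) and the cuticle gene Ccp84Ag (-2.45). The genes l(2)efl, bmm and Mdr50 were not called between the 2 temperatures. They were at 8575, 9774 and 3055 at 25 °C, against 8568, 9618 and 3756 at 29 °C (adjusted p = 0.998, 0.987 and 0.831).

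For circRNAs the same comparison gave 1 call higher (0.0566%) and 0 lower (0.0%) by limma, with 75 of the 1767 at an unadjusted p under 0.05 in either direction, a median log2 difference of 0.18, and 0 higher and 0 lower by edgeR and by DESeq2. The 1 call was a circRNA of CG42795 at chr3R:10239477-10248969, named after its values were seen. It was at 0 in all pre-treatment, 18 °C and 25 °C libraries and at 5.94, 4.36 and 6.01 normalized reads at 29 °C, 19 reads in all. It had entered the test through the 29 °C libraries alone, so the choice of features fixed that it differed, and the call is no support for a difference. Its call was lost without pre-treatment replicate 2 or 3 or 25 °C replicate 1. Of the 338 circRNAs called higher than in the starting flies, the mean at 25 °C also lay above the pre-treatment mean in 332, and the mean at 29 °C lay above that at 25 °C in 282. Both counts were favoured in advance, since the 338 were selected as high at 29 °C and low before treatment. In 100 of them all pre-treatment libraries were at 0. The same counts over all 1767 circRNAs are not given here, so no conclusion is drawn from them.

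**Figure D5:**
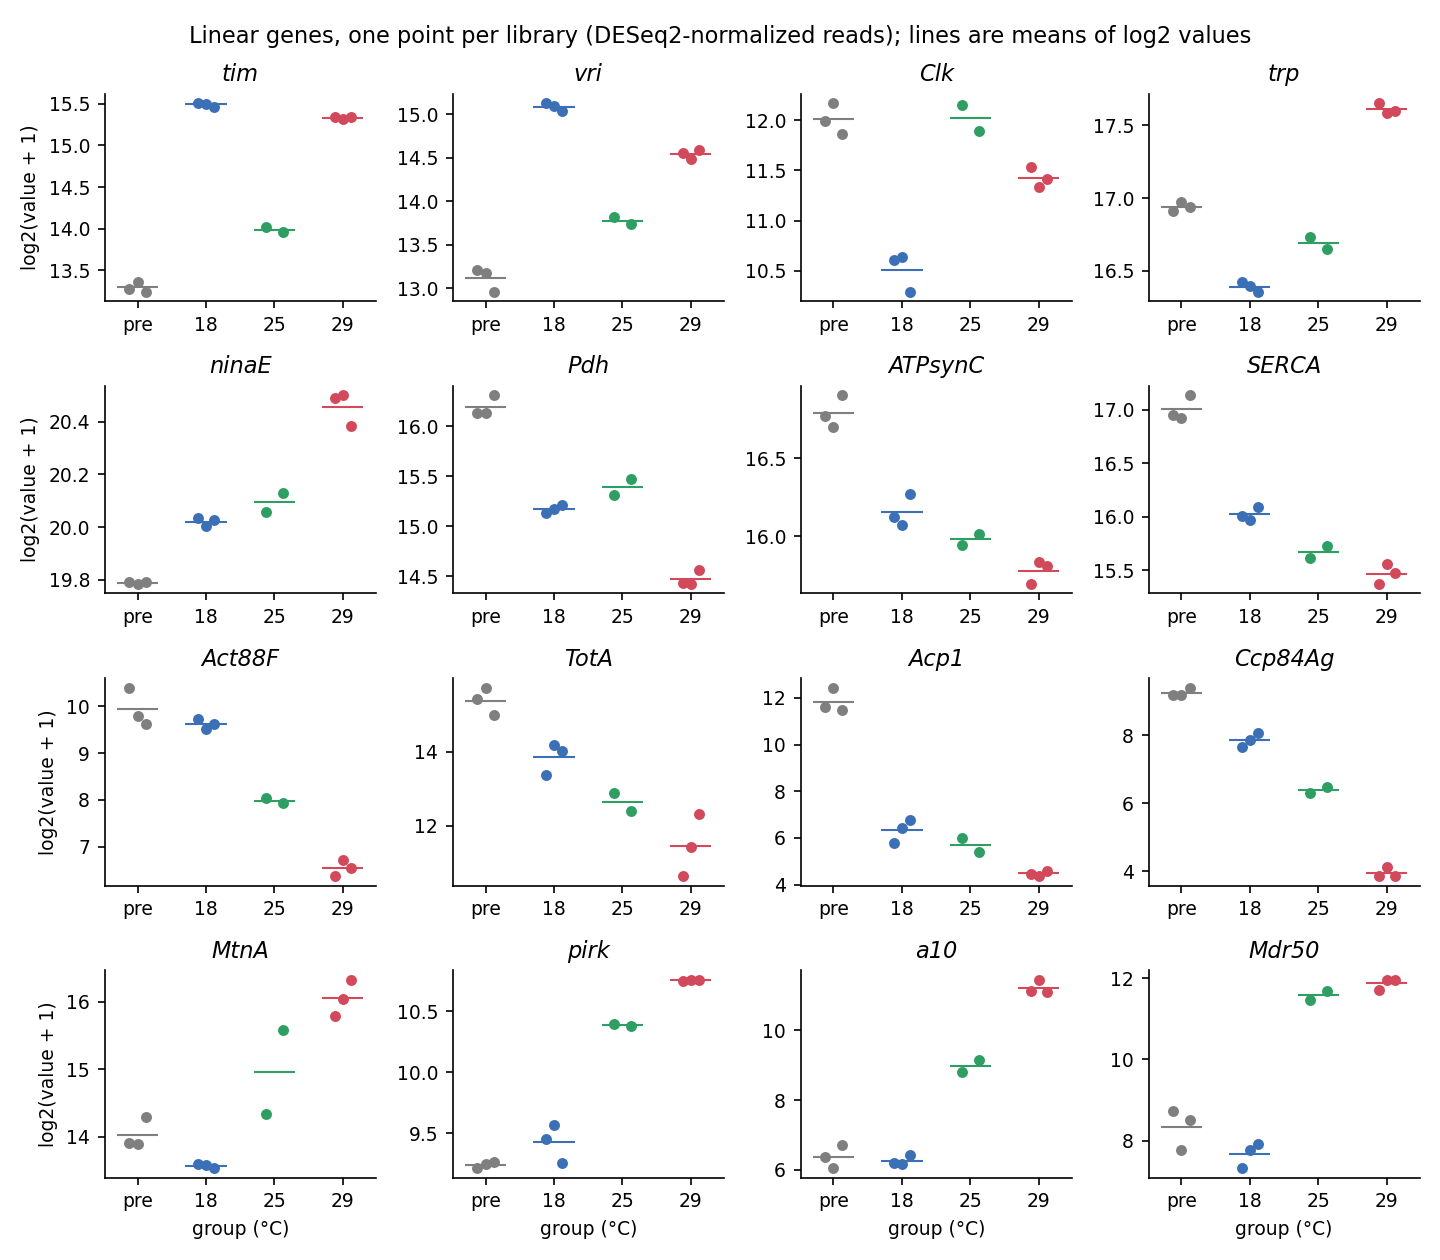
Levels of 16 linear genes in each library on a log2(normalized reads + 1) scale that differs between panels, by group (pre-treatment, 18, 25 and 29 °C), with lines at the mean of log2 values. For tim, vri, trp, MtnA and a10 the 29 °C points lie above those before treatment and at 25 °C, for Act88F, Ccp84Ag and Pdh they lie below both, and for Mdr50 the 25 °C and 29 °C points lie at about the same height.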

How the data were processed

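Groups were taken from the labels of ribodepleted total RNA libraries from heads of CantonS males: 3 pre-treatment and 3 at 29 °C in the main comparison, with 3 at 18 °C and 2 at 25 °C in the same fit, where they add to the estimate of the spread. The deposited signal values are DESeq2-normalized reads. The authors aligned reads to dm6 with STAR, counted genes with featureCounts and back-splice junctions with find_circ2, and used 1 size factor per library for both. Versions and strand setting are not given in the sources used here. Whole reads were recovered from the steps of the values (100% whole within 0.01) for edgeR 4.0.16 and DESeq2 1.42.0. Positions count from 1 in dm6, and exons and overlaps came from Ensembl annotation of that assembly. No sequence was used here.

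CircRNAs spanning under 50 nt (91 of 1928) were left out. Tested were circRNAs above 3 in every library of any 1 group, and genes whose mean was at least 10. Values were fitted with limma 3.58.1 (R 4.3.3, trended empirical Bayes) on log2(value + 1) of all 11 libraries, adjusted separately for circRNAs, genes and ratios of circRNA to host. Library totals were tested by exact permutation (two-sided). The fit was tested on simulated data. Floors of 3 reads cover counting error alone.

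The comparison, lists and members were chosen with earlier results of these data known. Genes were named by rule: among called, non-overlapping genes that averaged at least 100, the 12 largest rises and 12 largest falls; in each list, at most 5 called members (lowest adjusted p) and its set markers. For circRNAs the rule took 12 rises and 8 falls averaging at least 20 (filled up to 5 where fewer were called), the 5 most abundant and the most abundant of each RT-qPCR host. Not all are printed. Alternatives changed the pseudocount, filter, scaling, trend, adjustment, tool or libraries, or added a replicate or depth term.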

Additional observations from a re-analysis of the deposited data

Results flagged for a closer look

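For 20 of the 201 named linear genes the change from the starting flies to 29 °C differed from the change to 25 °C by limma's test of 29 against 25 °C (all differences on the log2 scale, Benjamini-Hochberg adjusted over all genes). Higher at 29 °C were a10 (2.25), Hsp70Bb (2.24), lncRNA:CR46141 (1.68), hll (1.63), tim (1.34), per (0.94), trp (0.92), trpl (0.82), vri (0.77), Cyp6a8 (0.6) and DnaJ-1 (0.56). Lower at 29 °C were Ccp84Ag (-2.45), Jhe (-2.06), Ugt35E2 (-1.49), Ugt35B1 (-1.45), Act88F (-1.44), Pdh (-0.92), Cpr49Ae (-0.88), Obp19b (-0.75) and GstE2 (-0.5). Only 2 libraries stand for 25 °C. Without 25 °C replicate 1 the calls for Act88F, Cpr49Ae, Cyp6a8, DnaJ-1, GstE2, Hsp70Bb, hll, lncRNA:CR46141, Obp19b and Ugt35E2 were lost. Those for Act88F, Cpr49Ae and Ugt35E2 were also lost without 29 °C replicate 1 or 3, and those for Cyp6a8, DnaJ-1, GstE2, hll and lncRNA:CR46141 without several other single libraries. The replicate block also ended the calls for Cyp6a8, GstE2 and hll, no intensity trend those for Cyp6a8 and hll, and rescaling those for GstE2 and hll. The call for hll was lost in 16 of 22 alternatives, among them a pseudocount of 0.5, no filter and joint adjustment over circRNAs and genes. The calls for tim, per, vri, trp, trpl, a10, Ccp84Ag, Jhe, Pdh and Ugt35B1 held in every alternative that was run. Act88F and Ccp84Ag were lower at 25 °C than before treatment and lower again at 29 °C, whereas trp and trpl were below the pre-treatment libraries at 25 °C and above them at 29 °C.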

How the results depend on the processing

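The ratio of total circRNA stayed above 1 in every alternative run, from 1.22 without pre-treatment replicate 2 to 1.89 as the mean of within-number ratios, and up to 1.82 without pre-treatment replicate 3. CircRNAs called higher (338) moved to 86 with a stricter filter, 132 after rescaling to circRNA totals, 163 with the 6 libraries alone, 218 with depth as a covariate, 173 with edgeR and 155 to 531 when 1 library was left out. CircRNAs called lower (2) moved to 4 with a pseudocount of 5, 1 with the stricter filter, the 6 libraries alone, no intensity trend or edgeR, 32 after rescaling, 0 with the depth covariate and 0 to 17 without 1 library. The ratio to the host (304 higher, 1 lower) moved to 66 and 0 with the stricter filter, 112 and 16 after rescaling and 124 and 0 with the 6 libraries, to 167 higher with the depth covariate, to 2 lower with a pseudocount of 0.5, and over 79 to 501 higher and 0 to 6 lower without 1 library. Linear genes ranged over 493 to 949 higher and 644 to 1085 lower without 1 library. The 20 named genes called between 29 and 25 °C became 40 with DESeq2 and 11 to 23 without 1 library, and over all genes the 31 higher and 50 lower became 67 and 96 with the depth covariate and 104 and 131 with DESeq2. The cause of these moves was not tested.

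Replicate numbers are shared by the groups, but same-numbered pre-treatment and 29 °C libraries did not deviate together over linear genes (correlations 0.06, -0.32 and -0.22). Differently numbered pairs ran from -0.15 to 0.32. So few libraries cannot show whether same-numbered samples shared a batch. With a replicate block 287 circRNAs were higher, 721 linear genes higher and 864 lower, the ratio was higher in 247 and lower in 0, 17 named genes differed between 29 and 25 °C, and the mean of within-number ratios of total circRNA was 1.89.

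Among 163 printed features the sign reversed for the btsz circRNA (log2 fold change -0.2122 after rescaling, -0.0931 without pre-treatment replicate 2, and up to 0.8772 without 1 other library), the CaMKI circRNA (0.9686 with the depth covariate, 0.0031 and 0.4693 without pre-treatment replicate 1 or 3, 0.0448 without 29 °C replicate 3, and down to -0.8293 without pre-treatment replicate 2), Hsp83 (0.0598) and elav (-0.0188, both with the depth covariate), none of them called. The depth covariate lost 17 calls among them, rescaling 9. List medians kept their sign under rescaling, edgeR and DESeq2, except small heat shock proteins and chemoreceptors. Depth limits the low circRNAs most, since 3 reads amount to as much as 5.98 normalized reads before treatment.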
